A study of Mus musculus with 28 samples.

Results

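The aldehyde dehydrogenases described here are 10 genes of the liver, taken by symbol from the gene count tables: Aldh3a2, Aldh2, Aldh1a1, Aldh1a7, Aldh1b1, Aldh3b1, Aldh1l1, Aldh1l2, Aldh4a1 and Aldh8a1. All 10 were found among the 23393 gene symbols that the tables share, and 10 more symbols of the same family were present and are described only as background. The study crossed genotype with treatment in the livers of 28 mice of strain 129svj aged 11 to 13 months. Wild type (WT) mice and mice heterozygous for Sirt6 (HZ) received by gavage either WY-14643 (WY) at 50 mg/kg in 0.5% carboxymethylcellulose or the carboxymethylcellulose alone (vehicle), and livers were taken after 12 h. There were 7 animals in each of the 4 groups, 1 library per animal. The labels give neither the sex nor the construction of the Sirt6 allele, so the HZ group stands for reduced Sirt6 dosage from an allele not described in the sources used here.

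Aldehyde dehydrogenases oxidize reactive aldehydes to carboxylic acids with NAD or NADP, and the liver is a main site of their activity. Members differ in the aldehyde they take and in where they work: Aldh3a2 acts on long-chain fatty aldehydes in the endoplasmic reticulum and peroxisomes, Aldh2 and Aldh1b1 on acetaldehyde in mitochondria, Aldh1a1 on retinaldehyde in the cytosol, and Aldh1l1, Aldh1l2, Aldh4a1 and Aldh8a1 on intermediates of folate, proline and tryptophan metabolism. WY-14643 is an agonist of PPAR alpha, the nuclear receptor that raises fatty acid oxidation genes in the fasting liver, and Sirt6 is an NAD-dependent deacylase of chromatin.

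In the mouse annotation (GENCODE M21, build GRCm38) the 10 genes lie at separate loci except for a pair on chromosome 19. Aldh3a2 (ENSMUSG00000010025) is on chromosome 11 from 61223417 to 61267464 on the minus strand. Aldh1b1 is on chromosome 4 from 45799022 to 45804604 on the plus strand, and Aldh4a1 is on the same chromosome from 139622866 to 139649690 on the plus strand. Aldh1l1 is on chromosome 6 from 90486427 to 90600203 and Aldh8a1 on chromosome 10 from 21377291 to 21396585, each on the plus strand. Aldh2 is on chromosome 5 from 121566027 to 121593824 on the minus strand. Aldh3b1 is on chromosome 19 from 3913491 to 3929808 and Aldh1l2 on chromosome 10 from 83487450 to 83534140, each on the minus strand. Aldh1a1 (chromosome 19, 20492715 to 20643465, plus strand) and Aldh1a7 (20692953 to 20727562, minus strand) are separated by 49487 bp and point toward each other.

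The closeness of the Aldh1a pair bears on how their reads could be assigned. Their longest coding transcripts matched at 89.7% of 2015 aligned bases, and 6.54% of the 50-base words of Aldh1a1 and 7.49% of those of Aldh1a7 occur in the other gene. No such word of Aldh3a2, Aldh1b1 or Aldh8a1 occurs in another gene. For Aldh4a1, 45.0% of its words are also in Gm21969, an overlapping annotation on the same strand, so its count is uncertain. For Aldh1l2 the share was 16.8%, with D10Wsu102e on the opposite strand, and for Aldh3b1 it was 9.55%, mainly with Aldh3b3. For Aldh1l1 it was 8.34%, with Gm15756, and for Aldh2 it was 2.12%, with Gm42879, each on the opposite strand. How strand was treated in the counting is unknown, so reads of such opposite-strand pairs cannot be told apart where they overlap. The pairs are Aldh1a1 with C730002L08Rik and with Gm6684, Aldh1l2 with D10Wsu102e, Aldh1l1 with Gm15756, and Aldh2 with Gm42879. Of these partners C730002L08Rik and D10Wsu102e are among the gene symbols counted. Gm6684, Gm15756 and Gm42879 are not, and neither is Gm21969.

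The start regions of the genes whose counts changed most with WY, and of the Aldh1a pair, are printed so that the described differences can be set against sequence. They are RefSeq windows of 300 bases (build GRCm38.p6), 250 before and 50 after the annotated start, and a window was matched for 8 of the 10 genes. Capitals mark, on either strand, the nuclear receptor hexamer AGGTCA, the E-box CACGTG, the CCAAT box and the GC box GGGCGG.
Aldh3a2, chr11:61267137-61267436, minus strand: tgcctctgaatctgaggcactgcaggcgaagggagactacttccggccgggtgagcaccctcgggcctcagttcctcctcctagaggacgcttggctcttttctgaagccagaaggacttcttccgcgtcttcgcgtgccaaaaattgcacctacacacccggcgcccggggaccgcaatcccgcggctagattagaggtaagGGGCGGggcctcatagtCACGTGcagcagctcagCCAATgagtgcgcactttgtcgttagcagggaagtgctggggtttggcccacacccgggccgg
Aldh1b1, chr4:45798772-45799071, plus strand: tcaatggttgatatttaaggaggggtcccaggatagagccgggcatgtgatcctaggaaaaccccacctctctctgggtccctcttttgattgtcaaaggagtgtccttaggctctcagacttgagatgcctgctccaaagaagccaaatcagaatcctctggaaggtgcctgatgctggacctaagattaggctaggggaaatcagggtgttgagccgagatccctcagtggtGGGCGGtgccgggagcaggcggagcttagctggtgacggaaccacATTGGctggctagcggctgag
Aldh1l1, chr6:90550543-90550842, plus strand: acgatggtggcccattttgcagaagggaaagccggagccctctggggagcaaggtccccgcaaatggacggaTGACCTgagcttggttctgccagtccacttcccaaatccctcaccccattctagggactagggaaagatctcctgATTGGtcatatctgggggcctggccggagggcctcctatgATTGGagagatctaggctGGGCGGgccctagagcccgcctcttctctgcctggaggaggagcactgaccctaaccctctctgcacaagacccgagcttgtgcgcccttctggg
Aldh1a1 inner start, chr19:20601718-20602017, plus strand: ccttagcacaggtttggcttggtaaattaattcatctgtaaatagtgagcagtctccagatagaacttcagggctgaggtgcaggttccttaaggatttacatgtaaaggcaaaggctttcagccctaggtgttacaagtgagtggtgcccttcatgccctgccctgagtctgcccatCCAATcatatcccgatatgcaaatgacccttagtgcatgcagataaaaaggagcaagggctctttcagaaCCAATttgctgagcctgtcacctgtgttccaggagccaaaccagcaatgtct
Aldh1a7, chr19:20727507-20727806, minus strand: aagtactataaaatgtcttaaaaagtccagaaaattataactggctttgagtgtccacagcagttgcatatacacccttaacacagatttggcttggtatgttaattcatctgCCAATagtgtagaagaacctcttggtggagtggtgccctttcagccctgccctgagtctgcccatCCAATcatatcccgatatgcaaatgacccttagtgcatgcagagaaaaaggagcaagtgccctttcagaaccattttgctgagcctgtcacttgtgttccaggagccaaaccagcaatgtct

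Counted with the start as 1 and the base before it as -1, the Aldh3a2 window held a GC box at position -47, an E-box at -30 and a CCAAT box at -13. CACGTG occurred in 7.15% of the 32851 windows of the table, CCAAT in 37.4% and GGGCGG in 35.7%. The Aldh1b1 window held a GC box at -16 and a CCAAT box at 30, and the Aldh1l1 window held AGGTCA at -178, a GC box at -45 and 2 CCAAT boxes; AGGTCA was in 16.3% of all windows. None of the 9 windows of the 8 genes (Aldh1a1 has an outer and an inner start) held the direct repeat bound by PPAR and RXR, 2 copies of AGGTCA with 1 base between them, which was in 0.0396% of all windows, nor its looser form with AGGNCA for each copy, which was in 0.381%. These are letter matches in 300 bases and say nothing of sites farther away. The Aldh1a1 inner window and the Aldh1a7 window matched at 79.4% of 282 aligned bases, against 65.3% for the outer Aldh1a1 start.

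The libraries held 15795201 to 20020078 reads in genes. Sirt6 ranged from 1.91 to 3.53 CPM (counts per 1e6 reads in genes, with TMM-scaled library sizes) in WT vehicle and from 0.882 to 1.38 in HZ vehicle, and from 2.27 to 4.18 in WT WY against 1.29 to 2.29 in HZ WY, so 1 HZ WY animal overlapped the WT WY range. Its log2 fold change in HZ against WT was -0.97 ± 0.17 under vehicle (edgeR adjusted p = 0.00696) and -1.04 ± 0.16 under WY (edgeR adjusted p = 0.00721). The hepatocyte markers Alb, Apoa1, Ttr, Cps1 and Fah were all present, with a summed level of 38547 to 100627 CPM. In all, 5 HZ libraries (animals 30 and 38 under vehicle, 14, 15 and 21 under WY) stand apart on the second principal component, which holds 9.77% of the variance. Vehicle animals carry the numbers 29 to 39 and 71 to 78 and WY animals the numbers 2 to 25, and the treatments are deposited in separate tables, so anything tied to numbering cannot be told apart from treatment.

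Reading levels per kilobase of exon, Aldh1a1 and Aldh2 led the family in every group. In WT vehicle the mean level was 438 CPM per kb for Aldh1a1, 353 for Aldh2, 251 for Aldh1a7, 211 for Aldh1l1, 158 for Aldh3a2, 103 for Aldh4a1, 91.6 for Aldh8a1 and 36.9 for Aldh1b1. Aldh3b1 (0.991) and Aldh1l2 (0.0569) were far below. Among neighbours in this order, only Aldh2 over Aldh1a7 and the steps from Aldh8a1 to Aldh1b1 to Aldh3b1 to Aldh1l2 had ranges over animals that did not overlap in WT vehicle. In HZ vehicle Aldh3a2, at 95.8 CPM per kb, ranked 6 of 10, between Aldh4a1 (105) and Aldh8a1 (87.7), and its range overlapped both. Under WY it ranked 3, at 332 CPM per kb in WT and 301 in HZ, between Aldh2 (371 and 366) and Aldh1a7 (269 and 280), again with overlapping ranges. With the longest transcript in place of the exon union as length, Aldh3a2 ranked 3 in WT vehicle, 5 in HZ vehicle and 2 in both WY groups.

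**Figure D1:**
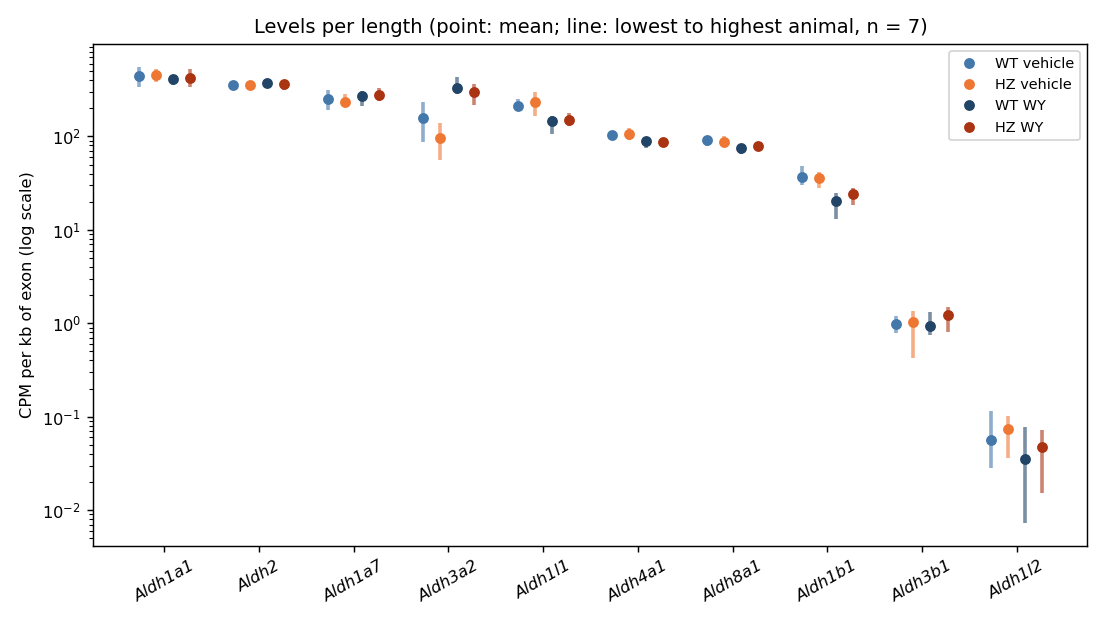
CPM per kb of exon (log axis) for the 10 aldehyde dehydrogenases in the 4 groups, with the mean as a point and the lowest to highest animal as a line (7 animals per group). Aldh3a2 is the gene whose place shifts most, from 95.8 CPM per kb in HZ vehicle to 332 in WT WY, while Aldh3b1 and Aldh1l2 lie far below the rest in every group.

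Aldh3a2, the fatty aldehyde dehydrogenase that finishes the conversion of long-chain fatty alcohols and omega-hydroxylated fatty acids to acids, rose with WY in both genotypes. Its level in WT vehicle ran from 494 CPM through a median of 979 to 1298, and in WT WY from 1610 through 1756 to 2450. In HZ vehicle it ran from 311 through 500 to 774, and in HZ WY from 1207 through 1654 to 2038. Every WY animal was above every vehicle animal of its genotype, a pattern shared by 15.7% of the genes tested in WT and 12.6% in HZ. The log2 fold change was 1.07 ± 0.20 (SE) in WT (edgeR adjusted p = 5.13e-05, exact permutation p = 0.000583) and 1.65 ± 0.20 in HZ (edgeR adjusted p = 9.84e-08, exact permutation p = 0.000583). With 7 against 7 animals, 0.000583 is the smallest two-sided p that all splits of the animals allow. Its share of the summed per-kilobase level of the 10 genes under vehicle was 9.51 ± 2.59% in WT and 5.93 ± 1.76% in HZ, and under WY 19.4 ± 3.44% in WT and 17.5 ± 1.79% in HZ (SD, n = 7).

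A response to WY was common in these livers, so the count of members that passed has to be read against all genes. In WT 1 of the 9 members tested rose and 4 fell at an edgeR adjusted p below 0.05, where 54.1% of the 12607 genes tested passed, 27.4% higher and 26.7% lower. In HZ 2 rose and 3 fell, where 55.7% of all genes passed, 29.3% higher and 26.4% lower. Without overlap of the animals, 1 member was higher and 3 were lower with WY in WT, where 12.1% of all genes were lower in that way, and 1 was higher and 0 were lower in HZ, against 9.89%. Aldh1l2, with 1 to 15 reads per library, was left out by the filter on low counts. The median log2 fold change over the 9 members was -0.08 in WT, against -0.02 over all genes, and -0.10 in HZ, against 0.01. Levels in whole liver cannot tell fewer cells of a type from less RNA per cell.

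**Figure D2:**
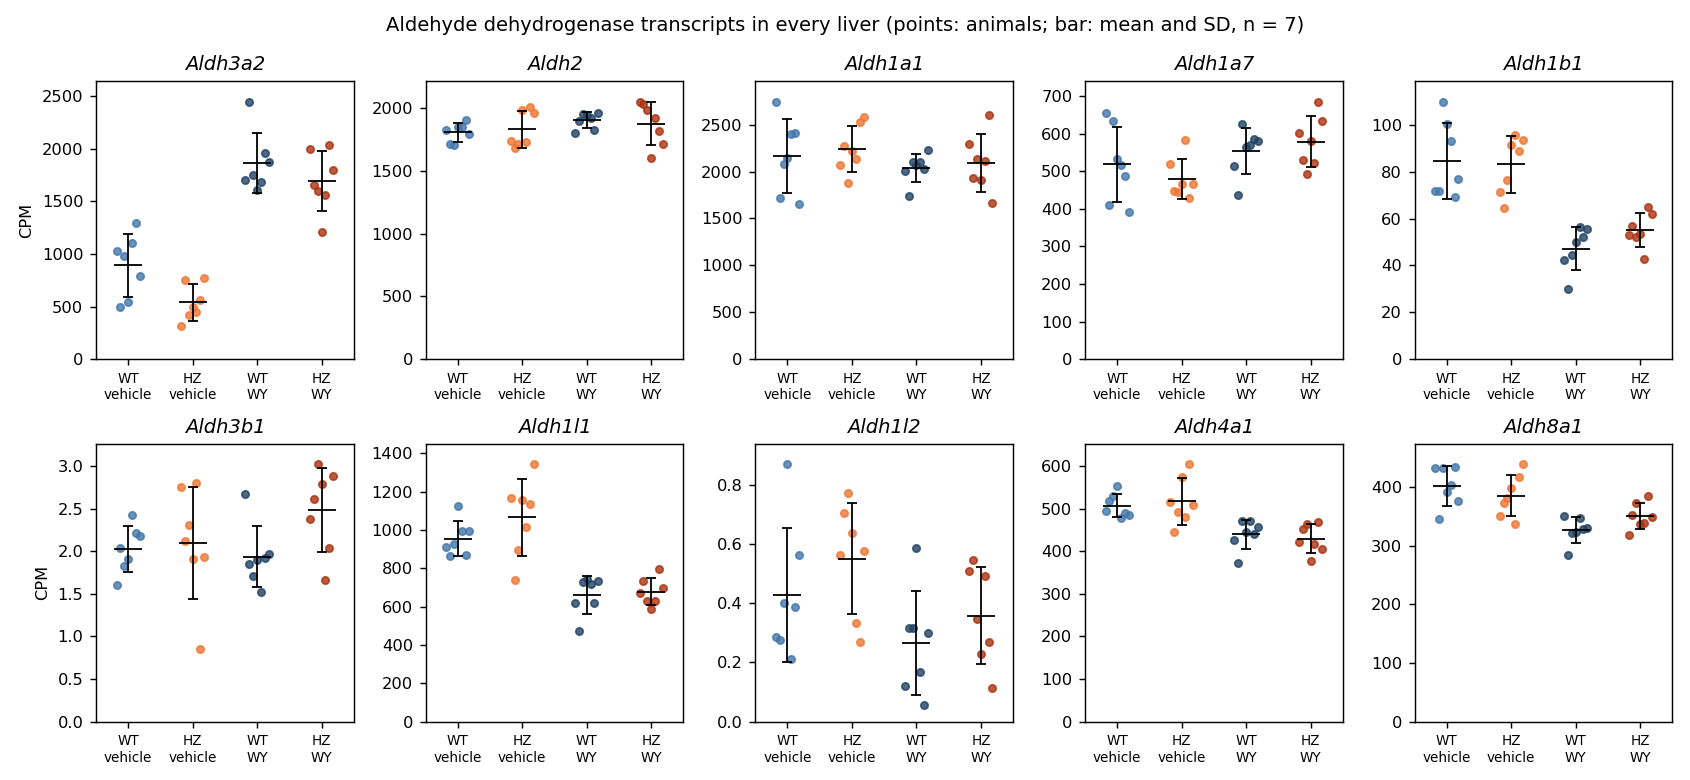
CPM of each of the 10 genes by animal in the 4 groups, with a linear axis from 0 in every panel, the mean as a bar and the SD as whiskers (n = 7). Aldh3a2 is higher in all 14 WY animals than in the vehicle animals of their genotype, Aldh1b1 and Aldh1l1 are lower in all 7 WY animals of WT and in 6 of 7 of HZ, and Aldh2 and Aldh1a1 overlap between groups.

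Aldh1b1, the mitochondrial relative of Aldh2, fell in both genotypes and had the largest fall of the members in WT. It ran from 69.3 through 77.0 to 110 CPM in WT vehicle and from 29.7 through 50.1 to 56.4 in WT WY, with no overlap. In HZ it ran from 64.6 through 89.1 to 95.9 CPM under vehicle and from 42.8 through 53.5 to 64.9 under WY, where 6 of the 7 WY animals lay below every vehicle animal. The log2 fold change was -0.84 ± 0.13 in WT (edgeR adjusted p = 3.46e-06, exact permutation p = 0.000583) and -0.60 ± 0.13 in HZ (edgeR adjusted p = 0.000254, exact permutation p = 0.00117).

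Aldh1l1, the cytosolic 10-formyltetrahydrofolate dehydrogenase that returns folate carbon to carbon dioxide, fell in both genotypes. In WT it ran from 862 through 929 to 1124 CPM under vehicle and from 473 through 719 to 744 under WY. In HZ it ran from 739 through 1136 to 1343 CPM under vehicle and from 586 through 673 to 796 under WY. The WT groups did not overlap, and in HZ 6 WY animals were below every vehicle animal. The log2 fold change was -0.53 ± 0.11 in WT (edgeR adjusted p = 0.000138, exact permutation p = 0.000583) and -0.65 ± 0.11 in HZ (edgeR adjusted p = 7.71e-06, exact permutation p = 0.00117). Its mitochondrial counterpart Aldh1l2 was close to the detection limit, between 0.0548 and 0.868 CPM over all 28 livers, and no change could be read at this depth.

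Aldh4a1, the mitochondrial dehydrogenase that turns the proline breakdown product pyrroline-5-carboxylate into glutamate, fell by a smaller amount. It ran from 478 through 493 to 552 CPM in WT vehicle and from 372 through 445 to 470 in WT WY, with no overlap. In HZ it ran from 444 through 509 to 604 CPM under vehicle and from 377 through 423 to 469 under WY, with 4 WY animals below every vehicle animal. The log2 fold change was -0.20 ± 0.07 in WT (edgeR adjusted p = 0.011, exact permutation p = 0.000583) and -0.27 ± 0.07 in HZ (edgeR adjusted p = 0.00106, exact permutation p = 0.00291). Reads shared with Gm21969 limit how far this value belongs to Aldh4a1 alone.

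Aldh8a1, which oxidizes 2-aminomuconate semialdehyde in the kynurenine route of tryptophan breakdown, passed in WT. It ran from 345 through 403 to 434 CPM in WT vehicle and from 284 through 328 to 350 in WT WY, with 5 WY animals below every vehicle animal. The log2 fold change there was -0.30 ± 0.06 (edgeR adjusted p = 0.000238, exact permutation p = 0.00175). In HZ it ran from 337 through 382 to 438 CPM under vehicle and from 317 through 349 to 384 under WY, a log2 fold change of -0.14 ± 0.06 that did not pass (edgeR adjusted p = 0.0707, exact permutation p = 0.0559). That value passed under several other settings, for example at -0.16 with an adjusted p of 0.023 in DESeq2, and the difference between the genotypes did not pass its own test (interaction 0.16 ± 0.09, edgeR adjusted p = 0.578).

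The 4 members that did not pass in WT include the most abundant of the family. Aldh2, the main mitochondrial acetaldehyde dehydrogenase, had medians under vehicle of 1830 CPM in WT and 1737 in HZ and under WY of 1920 and 1926, and its log2 fold change with WY was 0.07 ± 0.06 in WT (edgeR adjusted p = 0.31) and 0.04 in HZ (edgeR adjusted p = 0.649). The exact permutation test of Aldh2 in WT alone gave p = 0.0303, among 40 such tests of the 10 members. The 10 other family symbols were tested in the same way. Aldh1a1, the cytosolic retinaldehyde dehydrogenase, had medians under vehicle of 2144 CPM in WT and 2215 in HZ and under WY of 2072 and 2112, with log2 fold changes of -0.08 in WT and -0.10 in HZ. Its ranges overlapped in all 4 groups, from 1654 to 2747 CPM.

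Aldh1a7, the neighbour of Aldh1a1, rose slightly with WY in HZ. It ran from 428 through 466 to 585 CPM in HZ vehicle and from 494 through 582 to 686 in HZ WY, a log2 fold change of 0.27 ± 0.10 (edgeR adjusted p = 0.0268, exact permutation p = 0.0117), and the groups overlapped. In WT it ran from 392 through 518 to 657 CPM under vehicle and from 438 through 571 to 626 under WY, a log2 fold change of 0.10 (edgeR adjusted p = 0.443). The call in HZ was lost when any of animals 35, 39, 18 or 21 was left out (edgeR adjusted p up to 0.0706). The ratio of Aldh1a7 to Aldh1a1 in CPM under vehicle was 0.241 in WT and 0.217 in HZ, and under WY 0.271 in WT and 0.281 in HZ. Aldh3b1, an oxidase of medium- and long-chain aldehydes, was low throughout, from 0.858 to 3.02 CPM, with log2 fold changes of -0.07 in WT and 0.24 in HZ that did not pass.

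**Figure D3:**
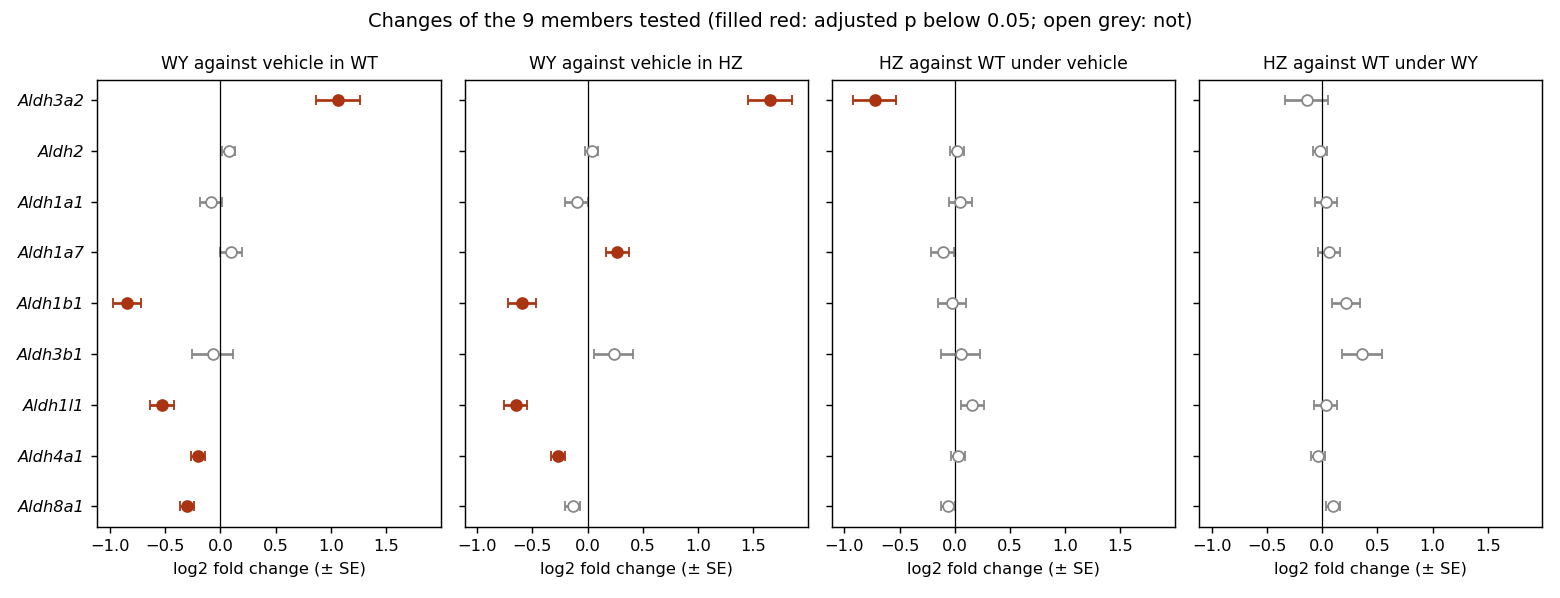
Log2 fold changes (± SE) of the 9 members tested in the 4 comparisons, filled red where the edgeR adjusted p was below 0.05 and open grey where it was not. Aldh3a2 stands at 1.07 and 1.65 with WY and at -0.73 between genotypes under vehicle, the sole filled point in the genotype panels.

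Between genotypes under vehicle, Aldh3a2 was lower in HZ, and no other member passed. Its mean was 890 ± 296 CPM in WT and 538 ± 172 in HZ (SD, n = 7), and 3 HZ animals lay below every WT animal. The animals of the genotypes overlapped for all 10 members, where 0.0397% of the genes tested were higher and 0.23% lower in HZ without overlap. The log2 fold change was -0.73 ± 0.20 (edgeR adjusted p = 0.0486, exact permutation p = 0.0221), where 2.07% of all genes passed, 0.301% higher and 1.77% lower. The 2 lowest WT animals, 31 and 37, stood at 494 and 542 CPM, inside the HZ range, and the 2 highest HZ animals, 34 and 71, at 753 and 774. Of the animals numbered 71 to 78, the 3 WT animals stood at 793, 1103 and 1298 CPM and the sole HZ animal at 774. The median log2 fold change over the 9 members was 0.02, against -0.00 over all genes.

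The call for Aldh3a2 under vehicle rests near its threshold. It was lost without the 5 HZ libraries that stand apart (-0.57, edgeR adjusted p = 0.305), with only the animals numbered under 60 (-0.61, adjusted p = 0.249), with a term for the animals numbered 71 to 78 (-0.57, adjusted p = 0.151) and with the 14 vehicle libraries alone (-0.72, adjusted p = 0.223), and it was kept in DESeq2 (-0.72, adjusted p = 0.00817). Without the 5 HZ libraries, with animals numbered under 60 and with the vehicle libraries alone, 0 of all genes passed. Leaving out 1 library at a time, Aldh3a2 passed in 5 of 28 fits. The range was -0.84 to -0.61, with edgeR adjusted p from 0.0092 to 0.139. The direction was the same in every one of these fits.

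**Figure D4:**
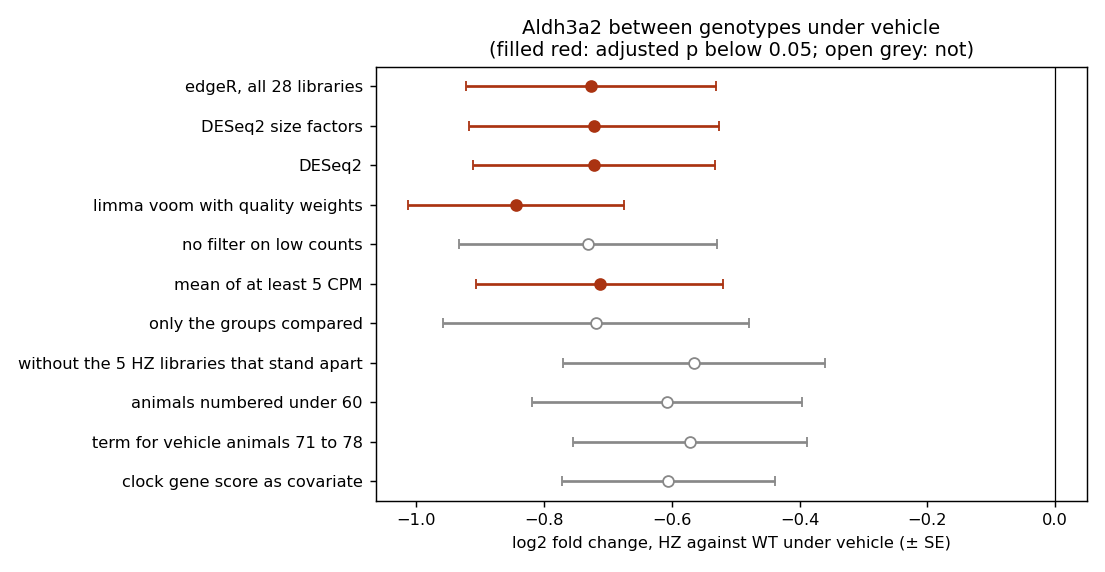
Log2 fold change (± SE) of Aldh3a2 in HZ against WT under vehicle in the edgeR fit of all 28 libraries and under 10 other settings, filled red where the adjusted p was below 0.05. All 11 values lie below 0, and 5 of them pass.

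Under WY no member differed between the genotypes in edgeR, against 3.16% of the genes tested, 1.42% of them with a higher and 1.74% with a lower level in HZ. Again the animals of the genotypes overlapped for all 10 members, where 0.452% of genes were higher and 0.896% lower in HZ without overlap. Aldh3a2 stood at 1864 ± 285 CPM in WT and 1694 ± 285 in HZ (SD, n = 7), a log2 fold change of -0.14 ± 0.19 (edgeR adjusted p = 0.71). The largest difference was that of Aldh3b1, at 0.36 ± 0.18 (edgeR adjusted p = 0.218, exact permutation p = 0.0414), followed by Aldh1b1 at 0.22 ± 0.13 (edgeR adjusted p = 0.30). At an unadjusted p below 0.05, 0 of the 9 members passed in edgeR, and at an adjusted p below 0.05, 0 passed in DESeq2 and 0 in limma voom.

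The difference of the 2 WY responses was tested directly as an interaction, in which 0% of all genes passed in edgeR (1182 at an unadjusted p below 0.05), 3 genes in DESeq2 and 1 in limma voom. None of the 9 members passed in edgeR, DESeq2 or limma voom, and 1 reached an unadjusted p below 0.05 in edgeR. For Aldh3a2 the WY response in HZ exceeded that in WT by 0.59 ± 0.28 on the log2 scale (unadjusted p = 0.0422, edgeR adjusted p = 0.516). With the clock gene score described below as a covariate, that value was 0.11 ± 0.265 (edgeR adjusted p = 0.947). These comparisons share groups of animals, so the vehicle difference and the interaction of Aldh3a2 are not independent of each other.

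Pairs of members ranged from going together to going apart from animal to animal. After subtraction of group means over the 28 livers, Aldh1l1 went with Aldh4a1 (Pearson r = 0.695) and with Aldh1b1 (r = 0.694), and Aldh1a1 with Aldh8a1 (r = 0.613), and Aldh3a2 with Aldh1a1 (r = 0.500), Aldh8a1 (r = 0.464) and Aldh2 (r = 0.323). The r of Aldh3a2 was -0.07 with Aldh1b1 and -0.15 with Aldh1l1, and the lowest of any pair was -0.47, between Aldh3b1 and Aldh4a1. In WT WY, animal 10 had the highest Aldh3a2 and the lowest level of 6 members (Aldh1a1, Aldh1a7, Aldh1b1, Aldh1l1, Aldh4a1 and Aldh8a1). In HZ WY, animal 18 had the highest level of 7 members. Without animal 10 the WY responses in WT were 0.99 for Aldh3a2, -0.76 for Aldh1b1 and -0.46 for Aldh1l1.

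The genes most like Aldh3a2 after subtraction of group means were Tubb2a (r = 0.842), Dhx32 (0.841), Inhbc (0.825), Tubb4b (0.820) and Acot2 (0.814), where the 99th percentile over 12606 genes was 0.679. Tubb2a and Tubb4b encode beta tubulins and Acot2 a mitochondrial acyl-CoA thioesterase. Acot2 had log2 fold changes of 2.60 with WY in WT, 4.12 in HZ and -1.85 between genotypes under vehicle, all at an edgeR adjusted p below 0.05. The genotype call of Acot2 (adjusted p = 0.0350) was lost without the 5 HZ libraries, with the vehicle groups alone and with animals numbered under 60, where 0 genes passed. The genes most like Aldh1b1 were Gls2 (r = 0.787), 2010315B03Rik (0.749), Ammecr1l (0.748), Tob1 (0.737) and Cyth1 (0.726), against a 99th percentile of 0.560. Gls2, the liver glutaminase, fell with WY by 1.48 in WT and by 1.35 in HZ on the log2 scale. These correlations describe 28 libraries that share their preparation and carry no test.

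Of the 10 other family symbols, 6 had enough reads to be tested. Aldh5a1, the succinate semialdehyde dehydrogenase, fell with WY (-0.42 in WT and -0.38 in HZ), as did Aldh6a1, the methylmalonate semialdehyde dehydrogenase (-0.49 and -0.55). Aldh16a1 fell in HZ (-0.37), and Aldh9a1, which acts in carnitine synthesis, rose there (0.38). Neither passed in WT, and their interactions did not pass (edgeR adjusted p = 0.421 for Aldh16a1 and 0.435 for Aldh9a1). None of the 6 passed between genotypes. Aldh9a1 came close under vehicle, at -0.26 ± 0.07 in HZ against WT (edgeR adjusted p = 0.057, exact permutation p = 0.00932). There 5 HZ animals lay below every WT animal.

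The list around Aldh3a2 holds genes of the omega oxidation of fatty acids and some of other routes, such as Hao1, Hacl1 and Sgpl1. Its genes mostly rose with WY. Of 20 tested, 12 rose and 4 fell in WT (80.0% passed, against 54.1% of all genes; median log2 fold change 0.60), and 12 rose and 4 fell in HZ (80.0%, against 55.7%; median 0.86). Hsd17b11, a lipid droplet dehydrogenase, stood at 1.47 and 1.54 in WT and HZ, the peroxisomal thioesterase Acot8 at 1.37 and 1.72, and Por, the electron donor of the cytochromes P450, at 0.84 and 0.66. The omega-hydroxylases Cyp4a10 (0.90 and 1.60) and Cyp4a14 (1.00 and 1.94) rose as well, and reads of the near-identical Cyp4a copies may be split between them. Cyp4f14, Cyp4v3, Hao1 and Sgpl1 fell in WT, and Cyp4f13, Cyp4f14, Cyp4v3 and Hao1 in HZ. Between genotypes under vehicle 4 were lower in HZ, Acsl1 (-0.86), Abcd3 (-0.70), Acot8 (-0.51) and Hsd17b11 (-0.51), where 1.77% of all genes were lower. Without the 5 HZ libraries that stand apart, 0 of all genes passed in that comparison, so the loss of these calls is not particular to the list. The median of the 20 genes under vehicle was -0.33 with all 28 libraries and -0.33 without the 5. Under WY Hsd17b11 was lower in HZ (-0.45). Genes named in these lists beyond the 2 of smallest p per comparison were chosen after their values were seen.

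Known PPAR alpha targets gave the scale of the WY response. In WT 15 of 16 tested rose, with a median log2 fold change of 0.88, where 27.4% of all genes rose. In HZ 16 of 16 rose, with a median of 1.44, where 29.3% of all genes rose. Acaa1b rose by 1.54 and 2.05, Cpt2 by 0.85 and 1.43, and Slc25a20 by 0.92 and 1.46. Under vehicle 7 of the 16 were lower in HZ (median -0.67), among them Cpt2 (-0.71) and Slc25a20 (-0.68), where 1.77% of all genes were lower. Without the 5 HZ libraries 0 of all genes passed under vehicle, these 16 included, and the median of the 16 was -0.58. Aldh3a2, at 1.07 and 1.65 with WY and -0.73 between genotypes, was near those medians.

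The list of ethanol, aldehyde and acetate metabolism around Aldh2 and Aldh1b1 holds enzymes that make aldehydes as well as enzymes that remove them or use acetate. Of 13 tested, 7 fell and 0 rose with WY in WT (53.8% passed, median -0.30). In HZ 7 fell and 1 rose (61.5% passed, median -0.21). Over all genes, 54.1% passed in WT, 26.7% lower, and 55.7% in HZ, 26.4% lower. Aox3, an aldehyde oxidase, fell by 1.51 and 1.62 on the log2 scale in WT and HZ, Adh4 by 0.55 and 0.79, and the ethanol-oxidizing Cyp2e1 by 0.43 and 0.75. Acss3, a propionate and acetate activating enzyme, was the gene that rose in HZ (0.85). None of the 13 passed between genotypes.

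Around Aldh1a1, 6 retinoid genes of 21 tested rose and 4 fell with WY in WT (47.6% passed, below the 54.1% of all genes; median 0.04), and 4 rose and 3 fell in HZ (33.3%, below the 55.7%; median 0.13). Retsat, the retinol saturase, stood at 0.73 and 1.13, and Dhrs4, a retinal reductase, at 0.63 and 0.73. Rdh13 and Rdh14 also rose in both genotypes. Bco2, a carotenoid oxygenase, stood at -0.73 and -0.69, and Rdh9 at -1.03 and -1.78. Rdh7 fell in both genotypes and Rdh11 in WT. Retsat (-0.58) and Dhrs4 (-0.32) were lower in HZ under vehicle. Neither passed without the 5 HZ libraries, where 0 of all genes passed.

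Around Aldh1l1, the folate carbon genes went in both directions with WY: 3 of 25 tested rose and 9 fell in WT (48.0% passed, median -0.10), and 4 rose and 9 fell in HZ (52.0%, median -0.14), shares below those of all genes. The methionine synthase Mtr stood at -0.66 and -0.57, and the folate polyglutamate synthase Fpgs at 0.64 and 1.14. Atic and Shmt2 also rose in both genotypes. Mthfd2, a mitochondrial folate dehydrogenase, was higher in HZ under vehicle (0.84). It did not pass without the 5 HZ libraries, where 0 of all genes passed.

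Around Aldh4a1, 6 proline and glutamate genes of 14 tested rose and 5 fell with WY in WT (median -0.04). In HZ 4 rose and 6 fell (median 0.01). The shares that passed were 78.6% in WT, against 54.1% of all genes, and 71.4% in HZ, against 55.7%. Prodh, the proline dehydrogenase that makes the Aldh4a1 substrate, fell (-1.10 and -1.15), as did Gls2 (-1.48 and -1.35), Arg1, Glud1 and Hoga1. Grhpr, a glyoxylate reductase, rose (1.12 and 1.30), as did Pycrl (0.47 and 0.24), and Got2 rose in HZ (0.15). Pycrl was lower in HZ under WY (-0.33).

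Around Aldh8a1, 7 genes of kynurenine and NAD metabolism of 18 tested fell and 2 rose with WY in WT (50.0% passed, median -0.20). In HZ 9 fell and 2 rose (61.1% passed, median -0.25). The shares over all genes were 54.1% in WT, 26.7% lower, and 55.7% in HZ, 26.4% lower. Kynu, the kynureninase, stood at -0.95 and -0.77, Ido2 at -0.65 and -0.48, and Acmsd, which supplies the Aldh8a1 substrate, at -1.15 and -1.28. The NAD synthesis genes Nmrk1 (0.71 and 0.68) and Nmnat1 (0.43 and 0.58) rose. None of the 18 passed between genotypes.

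Other routes of aldehyde removal, reductases and glutathione enzymes, had 3 genes up and 6 down of 17 tested in each genotype (52.9% passed, near the share of all genes; median -0.18 in WT and -0.13 in HZ). Akr1d1, a steroid reductase, stood at -2.17 and -2.01 and Akr1c6 at -0.70 and -0.93. Cbr1 and Akr7a5 rose in both genotypes, Cbr3 in WT and Hagh in HZ. Of 9 NRF2 targets, 2 rose (Srxn1 and Txnrd1) and 3 fell (Gclc, Gclm and Gstm1) in WT. In HZ 3 rose (Srxn1, Txnrd1 and Abcc4) and 2 fell (Gclm and Gstm1). The share of NRF2 targets that passed was 55.6% in each genotype, near the share of all genes. None of these 17 or 9 genes passed between genotypes.

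Markers of liver zones and of other cells moved along with some of these results. The summed level of 6 periportal hepatocyte markers ran from 3630 to 6518 CPM in WT vehicle and from 3011 to 3961 in WT WY. In HZ it ran from 5019 to 6119 CPM under vehicle and from 2299 to 3340 under WY. With WY 5 of the 6 fell in each genotype, where 26.7% of all genes fell in WT and 26.4% in HZ. The 6 pericentral markers summed to 7136 to 11131 CPM in WT vehicle and to 7107 to 9195 in WT WY, with 2 that rose and 2 that fell. In HZ their sum was 10366 to 12965 CPM under vehicle and 6350 to 8291 under WY, without overlap. Most of that sum was Cyp2e1, with a median of 8762 CPM in HZ vehicle and 5197 in HZ WY. In HZ 1 of the 6 rose, Axin2 (1.53), and 3 fell, Cyp2e1, Oat and Slc1a2, while Glul and Lgr5 did not pass. The 5 hepatocyte markers summed to 74099 to 100627 CPM in WT vehicle and to 61419 to 71486 in WT WY, without overlap, and to 62886 to 98253 in HZ vehicle and 38547 to 76543 in HZ WY. Of these 5, 4 fell with WY in each genotype (median log2 fold change -0.39 in WT and -0.50 in HZ), and the median of Cps1 was 2507 CPM in WT vehicle against 579 in WT WY. The sum of 6 monocyte and neutrophil markers reached 31.2 CPM in HZ vehicle and 27.5 in HZ WY. Its highest WT values were 10.8 CPM with vehicle and 7.36 with WY. The medians of this sum lay closer together. With vehicle the HZ median was 8.84 CPM against 7.37 for WT, and with WY 9.45 against 6.01. None of the 6 passed in any comparison in edgeR. The sum of 7 Kupffer cell and macrophage markers reached 458 CPM in HZ vehicle and 497 in HZ WY. Its highest WT values were 304 CPM with vehicle and 249 with WY. Here too the medians were closer, with vehicle 263 CPM for HZ against 255 for WT, and with WY 261 against 214. The adipocyte sum was at most 5.25 CPM in WT vehicle and at least 25.7 in WT WY, nearly all of it Cidec, a lipid droplet protein, with Lep at 0 in all livers. Their part in the member values was not tested. The clock gene score, the mean z score of Dbp, Tef, Hlf and their like minus that of Arntl and its like, had medians under vehicle of 0.03 in WT and 0.72 in HZ, and under WY of 0.85 in WT and -1.18 in HZ, with overlapping ranges. With that score as a covariate, Aldh3a2 in HZ against WT stood at -0.61 under vehicle (edgeR adjusted p = 0.0585) and at -0.49 under WY (adjusted p = 0.0966), its interaction at 0.11 (adjusted p = 0.947), and Aldh1a7 with WY in HZ at 0.27 (adjusted p = 0.072).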

How the data were processed

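RNA from 28 livers was sequenced, 1 library per animal, with NEBNext Ultra libraries per the labels' protocols. Per the submitters' processing notes the authors used STAR 2.5.0a, HTSeq 0.6.1p1 and DESeq2 1.18.1 with mm10 (annotation and strand option: not given in the sources used here). The authors deposited raw counts by gene symbol, 1 table for each treatment. HTSeq's rows for unassigned reads were kept out of library sizes (reads not placed uniquely, 35.8 to 42.6% per library; in no gene, 6.35 to 9.08%). Symbols garbled into dates (25 and 27 rows, 0.0751 to 0.134% of reads) were left out.

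Counts were joined by symbol, filtered with filterByExpr over the 4 groups (12607 genes) and fitted in edgeR 4.0.16 (TMM, robust quasi-likelihood, 1 mean per group, 24 residual degrees of freedom, R 4.3.3), with Benjamini-Hochberg adjustment over all genes tested. CPM use TMM library sizes. The SE of an edgeR log2 fold change was derived from its quasi-likelihood F statistic. It is the absolute log2 fold change divided by the square root of F. Levels between genes were compared per kb of exon union. Two-sided exact permutation tests over animals used log2 CPM with a prior count of 2. DESeq2 1.42.0, limma 3.58.1 with voom, other filters, scalings, libraries and covariates were tried as alternatives. On simulated data with 200 changed genes among 12555, the fit of WY against vehicle in WT found 85.7% of changes of 1 and 62.6% of changes of 0.5 on the log2 scale. Of its 156 calls, 10 were of unchanged genes. The simulation drew genes independently and changed few, whereas 54.1% of genes passed in the data. These rates therefore check the fit and do not describe the real comparison.

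The rule for named genes took all members, other family symbols, the 2 genes of smallest p per list and comparison, and the 5 genes most like the 2 members of smallest p for WY in WT; other list genes named were chosen after their values were seen. Members, lists and the 5 libraries that stand apart were chosen with earlier results of these data known. The animals are separate, and pairs of libraries within a group differed beyond counting noise (chi-square per degree of freedom 10.9 to 113). Some genes counted in the lists are not reported here by name.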

Additional observations from a re-analysis of the deposited data

Results flagged for a closer look

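Of the 40 combinations of member and group, 3 held an animal far from the other 6, by a gap divided by the group's range above 0.568, and all 3 were in WT WY. Chance flags about 1 in 20 groups. Aldh3a2 in animal 10 stood at 2450 CPM against 1966 in the next animal (gap ratio 0.577). Aldh8a1 in the same animal 10 stood at 284 CPM against 322 (gap ratio 0.575). Aldh3b1 in animal 6 stood at 2.67 CPM against 1.97 (gap ratio 0.611). Without animal 10, the WY response in WT was 0.99 for Aldh3a2 (edgeR adjusted p = 0.000196) and -0.27 for Aldh8a1 (edgeR adjusted p = 0.00094).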

How the results depend on the processing

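Over the alternatives tried, the members' results gave 1653 values with the same call, 34 that lost a call, 9 that gained one and 0 that changed direction of a call. Direction was not compared where neither value passed. An example is Aldh1a7 with WY in WT, at 0.10 with all 28 libraries and -0.01 with animals numbered under 60. The WY calls of Aldh3a2, Aldh1b1, Aldh1l1 and Aldh4a1 in both genotypes and of Aldh8a1 in WT passed in all of them. The cause of the changes below was not tested.

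For HZ against WT under vehicle, 261 genes passed; DESeq2 gave 500, limma voom 729, no filter 146, the vehicle groups alone 0 (1889 at an unadjusted p below 0.05), without the 5 HZ libraries 0 (1297), animals numbered under 60 alone 0 (1579) and a term for animals 71 to 78 gave 69. The 1 member, Aldh3a2, became 0 with no filter (adjusted p = 0.0832), with the vehicle groups alone, without the 5 HZ libraries, with animals numbered under 60, with the term and with the clock gene score, a covariate chosen after seeing the data. Under WY, 398 genes passed (179 higher, 219 lower); DESeq2 size factors gave 683 (203 higher, 480 lower), DESeq2 1102, limma voom 968, no filter 153, without the 5 HZ libraries 48 and the clock gene score 1135. The interaction gave 0 genes, 3 in DESeq2 and 1 in limma voom. Its alternative with only the groups compared is the fit of all 4 groups itself. Leaving out 1 library at a time gave 43 (without WT vehicle animal 74) to 650 (without HZ vehicle animal 71) genes and 0 to 1 member under vehicle, 74 (without WT WY animal 19) to 977 (without HZ WY animal 2) genes between genotypes under WY, 6495 to 6908 genes for WY in WT, 6658 to 7130 genes and 4 to 6 members for WY in HZ, and 0 to 1 gene for the interaction.

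Aldh8a1 with WY in HZ passed with DESeq2 size factors (-0.16, adjusted p = 0.0355), DESeq2 (0.023), limma voom (0.0214), a mean of at least 5 CPM (0.0371), without the 5 HZ libraries (0.0313) and with the clock gene score (0.0279). Depth limits Aldh1l2, with at most 15 reads in a library. No paired analysis was possible because no animal number occurs in more than 1 group.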
